A study of Mus musculus with 5 samples.

Results

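The genes described here encode the motor and the scaffold of the motile cilium: axonemal dyneins, the factors that assemble them, the nexin-dynein regulatory complex, radial spokes and tektins. They were chosen by symbol, as rows of the count table whose names begin with Dnah, Dnai, Dnal, Dnaaf, Drc, Rsph or Tekt, and 41 rows of 16347 fitted. 2 symbols stood on a second row as Dnah12.1 and Tekt2.1, which the annotation used here did not place. The rows were sorted by role into 3 outer arm heavy chains, 2 heavy chains known from sperm outer arms, 9 inner arm heavy chains, 1 unplaced heavy chain (Dnah14), 5 intermediate or light chains, 5 assembly factors, 3 regulatory complex subunits, 7 radial spoke proteins and 6 tektins.

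The study sequenced single cells sorted from 3-month-old mice by the Smart-seq2 protocol, which copies whole transcripts and carries no molecular identifiers. 4 samples came from FoxJ1CreERT2 R26TdT mice, in which an inducible Cre under the Foxj1 promoter marks cells with a red reporter, and were taken from the walls of the lateral and the third ventricle, the midbrain and the spinal cord. 1 sample came from the midbrain of Nkx2-2Cre R26TrapC mice, whose Cre marks cells with a history of Nkx2-2, a transcription factor of ventral progenitors. Each group was 1 sample pooled from several animals, 10 for the Foxj1 line (5 females and 5 males) and 7 for the Nkx2-2 line (all females), no well was tied to an animal, and the tissue label of the spinal cord sample also reads adult mouse brain. No unmarked or Cre-negative cells were analysed here. Of the 672 wells in the title of the Foxj1 line midbrain sample, 480 share a number series with the other Foxj1 line samples. The rest share that of the Nkx2-2 line sample. What the series stand for is not stated, and comparisons with midbrain cells cross them.

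Midbrain cells were split by 3 marker genes in order. Cells with at least 1000 CPM (reads of a gene per 1e6 reads of the cell or group) of Ccdc153, a cilium gene of ependymal cells, were called Ccdc153-high. Of the rest, cells with at least 500 CPM of Sspo, which encodes the SCO-spondin secreted by the subcommissural organ, were called Sspo-high, and then cells with at least 500 CPM of Mog, a myelin gene, Mog-high. The 4 ependymal groups compared below are all 240 lateral ventricle cells, all 245 cells of the third ventricle, the 317 Ccdc153-high cells of the Foxj1 line midbrain and all 114 spinal cord cells. The Foxj1 line midbrain also held 196 Sspo-high and 34 other cells, and the Nkx2-2 line midbrain 19 Ccdc153-high, 12 Sspo-high, 243 Mog-high and 53 other cells. Median depth was 691446 to 759184 reads per cell in the 4 ependymal groups and in the Sspo-high cells, and 1362240 in the Mog-high cells. Over 7 ependymal marker genes the summed level was 10999 to 11826 CPM in the 3 brain ependymal groups and 6445 in the spinal cord, and none of the 7 was at 0. Over the 4 groups, markers of other cells summed to 6.33 to 544 CPM (subcommissural organ), 19.4 to 119 (oligodendrocytes), 0.602 to 1.64 (their precursors), 1659.7 to 2895 (astrocytes), 237 to 583 (choroid plexus), 0.676 to 8.25 (microglia), 73.5 to 728 (smooth muscle and pericytes, nearly all Acta2) and 6.30 to 27.7 (tanycytes). The part of these in the results was not tested. Only the midbrain group was selected by Ccdc153, so its ranks against the other groups describe selected cells.

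A motile cilium beats because dynein arms fixed along each microtubule doublet of its axoneme walk on the neighbouring doublet. Outer arms supply most of the power, inner arms shape the bend, the nexin-dynein regulatory complex ties doublets together, radial spokes relay signals from the central pair of microtubules, and tektins run as filaments inside the doublet wall. Arms are put together in the cytoplasm by assembly factors before transport into the cilium. Ependymal cells line the ventricles and the central canal and carry such cilia in tufts that move the cerebrospinal fluid.

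Promoter sequences show a feature that the choice by name did not use. The motif GTTGCC, part of the X-box bound by RFX factors, was searched on both strands in the 250 bases before each start in RefSeq's mouse annotation (GRCm38.p6), where 34 of the 41 rows had an entry. It stood in 9 of 38 member promoters (23.7%), which belong to 8 genes, in 21 of 55 promoters of other motile cilium genes (38.2%) and in 10.4% of all 32851 promoters. The forkhead motif GTAAACA, the kind of site that Foxj1 binds, stood in 2 of 38 (5.26%), in 3.64% and in 3.17%. A match is only a match of letters and does not show binding. Only these exact letters were searched, so a promoter without a match may still hold a variant of either site. The 120 bases before the start are printed, 5′ to 3′ on the gene's strand with GTTGCC or its reverse complement in capitals, for members the results below return to. These were picked after matches and levels were seen: 5 hold the motif close to the start, and Dnah14 has no exact match to either motif. No entry was found for Dnah3 or Dnaaf1. The windows are chr11:72361883-72362002 (minus strand) for Tekt1, chr4:126325689-126325808 (minus) for Tekt2, chr5:30281273-30281392 (plus) for Drc1, chr11:114727299-114727418 (plus) for Dnaic2, chr5:124724965-124725084 (plus) for Dnah10 and chr1:181576473-181576592 (plus) for Dnah14.
Tekt1: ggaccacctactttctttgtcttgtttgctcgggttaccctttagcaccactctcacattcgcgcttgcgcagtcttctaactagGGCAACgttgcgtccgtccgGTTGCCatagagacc
Tekt2: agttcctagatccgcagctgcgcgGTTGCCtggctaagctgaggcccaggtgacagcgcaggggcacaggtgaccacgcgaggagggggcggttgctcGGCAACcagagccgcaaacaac
Drc1: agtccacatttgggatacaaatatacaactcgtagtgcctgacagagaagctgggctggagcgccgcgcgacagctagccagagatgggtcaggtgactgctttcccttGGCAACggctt
Dnaic2: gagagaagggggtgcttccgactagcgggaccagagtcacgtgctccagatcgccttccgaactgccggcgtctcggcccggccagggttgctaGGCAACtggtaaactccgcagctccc
Dnah10: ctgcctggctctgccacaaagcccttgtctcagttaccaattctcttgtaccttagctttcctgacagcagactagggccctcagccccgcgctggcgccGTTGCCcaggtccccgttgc
Dnah14: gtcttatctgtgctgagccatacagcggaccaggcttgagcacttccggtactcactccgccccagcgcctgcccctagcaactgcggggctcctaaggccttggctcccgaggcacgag
Tekt1 carried the motif in both orientations, 35 and 15 bases before the start, as did Tekt2, 96 and 22 bases before it. Drc1, Dnaic2 and Dnah10 carried a single copy 11, 26 and 20 bases before the start. Positions are for the entry printed, the first of each gene. Tekt1 has 2 entries and Tekt2 has 3: the second Tekt1 entry and the last Tekt2 entry hold no match, and the remaining Tekt2 entry holds the same 2 matches 138 and 64 bases before its start.

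Most of the set was expressed in all 4 ependymal groups, with 36 to 38 of the 41 rows at 10 CPM or more in each. Summed over the 41 rows, the level was 12168 CPM in lateral ventricle cells, 11061 in those of the third ventricle, 13619.5 in midbrain and 10764 in spinal cord cells. Where 4 values follow one another below, they are in this order of regions. Mog-high cells of the Nkx2-2 line, which held 99099.5 CPM of 6 oligodendrocyte markers and should lack motile cilia, gave 116 CPM, and 29 of the 41 rows were under 1 CPM there. Thinned to 100000 reads, the median cell had reads of 29 members in each of the 3 brain ependymal groups and of 24 in the spinal cord, against 1 in Mog-high cells. Before thinning the medians were 31, 31, 31, 26 and 3. These are 1 sample per group, so differences between groups have no replicate check and no p-value. Intervals cover counting error only, and blocks of 96 consecutive cell numbers show the spread within a sample.

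**Figure D1:**
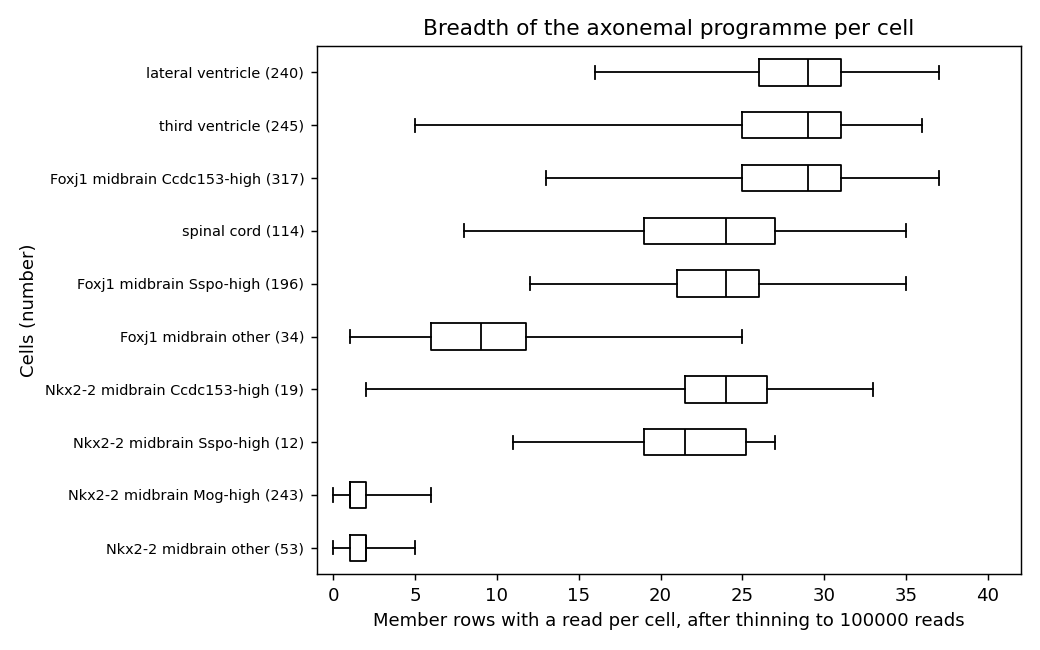
Member rows with at least 1 read per cell after each cell was thinned to 100000 reads (horizontal axis, of 41 rows), by class of cells (number of cells in brackets). Boxes span the quartiles, the line is the median and whiskers reach the lowest and highest cell. The ventricular and Ccdc153-high midbrain medians were 29, the spinal cord and Sspo-high medians 24, and no Mog-high cell had more than 6.

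Levels of different genes were compared per kilobase of exon, over 37 members whose length was known. Rsph1, a protein of the radial spoke head, was highest at 1446 CPM per kb in the mean of the 4 ependymal groups. The next were Dnali1, a light intermediate chain of inner arms, at 503, Tekt1 at 400.1, the spoke head protein Rsph9 at 338 and the regulatory complex subunit Drc3 at 294. Heavy chains, the very large motor subunits, measured 9.80 to 14.0 CPM per kb for the outer arm chains and 2.3 to 42.8 for the inner arm chains. The other axonemal roles had higher medians. The ranges of 3 of them overlapped that of the heavy chains, with a median of 117 and a range of 9.32 to 503 for intermediate or light chains, 79.0 and 3.90 to 1446 for radial spokes, and 108 and 4.39 to 400.1 for tektins. The regulatory complex subunits, with a median of 172 and a range of 169 to 294, did not overlap them. Assembly factors, which are not part of the axoneme, had a median of 32.3 and reached 52.5. Coverage along transcripts was not examined, so a loss of reads from long transcripts was not tested.

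**Figure D2:**
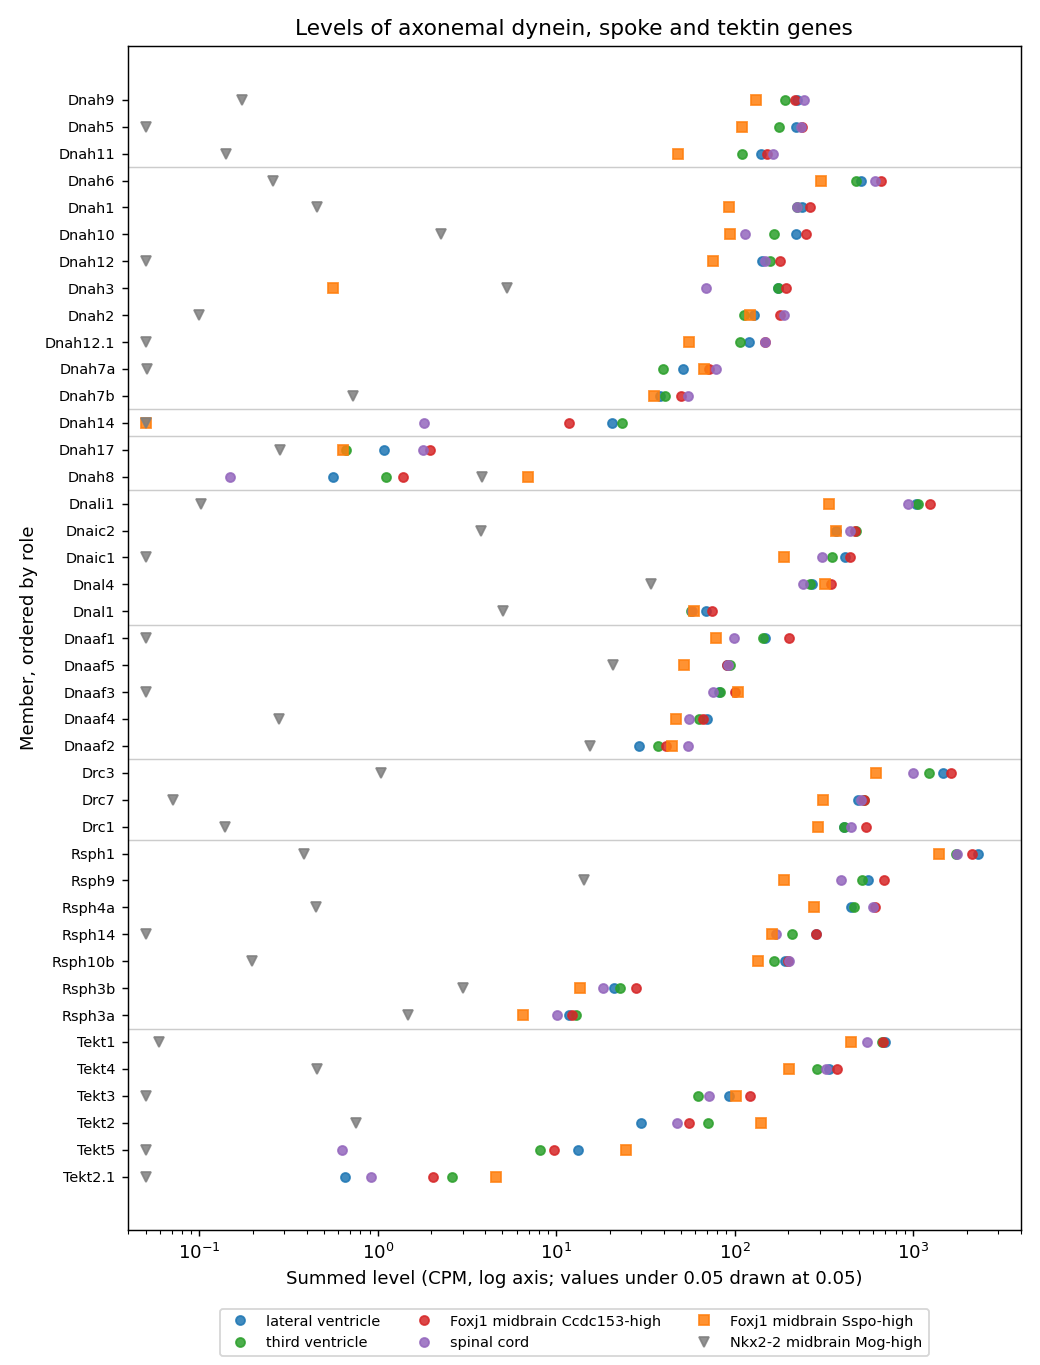
Level of each member (CPM of summed counts, log axis) in the 4 ependymal groups (circles), Sspo-high cells (squares) and Mog-high cells (triangles), with members grouped by role and values under 0.05 CPM drawn at 0.05. The 4 circles of most members lie close together. Dnah14, Tekt5 and Dnah3 are the members whose spinal cord circle lies far to the left among rows above 10 CPM elsewhere.

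Outer arm heavy chains were level across regions. Dnah5, whose loss is a common cause of human primary ciliary dyskinesia, measured 222, 178, 240.0 and 236 CPM. Dnah9, known from the distal part of airway cilia, measured 224, 192, 218 and 246 CPM. Dnah11, known from the proximal part, measured 140.2, 109, 152 and 165 CPM. All 3 were lowest in the third ventricle, and none was 2-fold apart between any pair of these groups.

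The remaining outer arm heavy chains, known from sperm, were barely detected. Dnah8 gave 0.558, 1.11, 1.38 and 0.148 CPM in the same order, below the 3.84 CPM of the Mog-high cells. Dnah17 gave 1.08, 0.662, 1.97 and 1.80 CPM, against 0.283 in Mog-high cells. The share of cells with a Dnah17 read was 15.1 to 20.4% in the 4 groups and 16.5% in Mog-high cells, which were deeper. Neither reached the 10 CPM needed to enter a comparison.

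Among inner arm heavy chains Dnah6 led in every group, at 511, 479.6, 660.0 and 615 CPM. Dnah7b was the lowest per kilobase, at 38.3, 40.6, 49.8 and 55.1 CPM. Its level and that of Dnah7a (51.4, 39.5, 71.4 and 78.5 CPM) are uncertain. Of the 50-base windows in the longest Dnah7a transcript, 30.6% also occur in Dnah7b, and 38.5% of those of Dnah7b occur in Dnah7c, so reads could be split between copies. All 9 inner arm rows were higher in the midbrain than in the lateral ventricle, by log2 0.13 to 0.49, and all 9 were higher there than in the third ventricle, by 0.14 to 0.86. None of these rows reached 2-fold. Most members shared this direction, 32 of 38 against the lateral and 31 of 37 against the third ventricle. The 9 rows include both Dnah12 rows and the copies Dnah7a and Dnah7b, so they are not 9 separate genes. Dnah1, Dnah2, Dnah12 and the second row Dnah12.1 ran from 108 to 265 CPM over the 4 groups.

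Dnah3, an inner arm heavy chain, was low in the spinal cord. Its level was 176 CPM in the lateral and 175 in the third ventricle and 193 in the midbrain, but 69.1 in the spinal cord (95% exact Poisson interval 67.4 to 70.8). It was detected in 89.2%, 83.3% and 73.5% of cells of the 3 brain groups and in 35.1% of spinal cord cells; thinned to equal depth the shares were 82.5%, 77.6%, 70.3% and 31.6%. In Mog-high cells 22.6% had a read (16.9% thinned) at 5.28 CPM. The 2 spinal cord blocks, at 46.1 and 109 CPM, lay below all 3 lateral ventricle blocks (147 to 192) and all 3 blocks of the third ventricle (131 to 219), and the higher of them lay within the midbrain range (89.5 to 276). Exons of Lyrm1 on the opposite strand overlap Dnah3 over 1506 bases, and Smart-seq2 does not mark strand.

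Dnah10, a heavy chain of the f-type inner arm, followed a milder form of the same order. Its 4 levels were 220.1, 166, 252 and 114 CPM. The spinal cord blocks, at 79.6 and 174 CPM, lay below the lateral ventricle blocks (179 to 246) and overlapped those of the third ventricle (132 to 189) and midbrain (115 to 358). In the spinal cord Dnah10 was read in 67.5% of the 40 cells with a Dnah3 read and in 43.2% of the 74 without one. The direction was the same in each brain ependymal group, the midbrain included. The shares were 92.1% and 69.2% in the lateral ventricle and 84.3% and 70.7% in the third ventricle. The spinal cord cells with a Dnah3 read were also deeper, with a median of 993760 reads against 710712. The part of depth in these shares was not tested.

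Dnah14, a heavy chain whose place in the axoneme is not settled, had the lowest level per kilobase of the members that reached 10 CPM in an ependymal group, at 0.885. Its level was 20.6 CPM in the lateral and 23.3 in the third ventricle, 11.7 in the midbrain and 1.82 in the spinal cord. Reads came from 66 of 240, 90 of 245, 50 of 317 and 3 of 114 cells, and 1 spinal cord cell held 98.3% of that group's reads. Block values ran from 16.3 to 23.6 CPM in the lateral ventricle, 5.67 to 37.5 in the third ventricle and 1.65 to 18.9 in the midbrain. The spinal cord blocks, at 0.0333 and 4.92 CPM, overlapped only the midbrain's.

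Intermediate and light chains varied little, and none of the 5 reached 2-fold between regions. Dnali1 measured 1032, 1071, 1250.4 and 940.2 CPM. Dnal1, a light chain that binds the outer arm motor domain, was lowest per kilobase of this role at 69.1, 57.0, 75.1 and 57.5 CPM. All 5 were higher in the midbrain than in the lateral ventricle (log2 0.10 to 0.35) and than in the spinal cord (0.08 to 0.53). Of all members compared, 32 of 38 and 28 of 37 had the same direction. Dnal4 and the outer arm intermediate chains Dnaic1 and Dnaic2 ran from 243 to 480.0 CPM.

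Assembly factors differed from one another in their regional order. Dnaaf1, a leucine-rich repeat factor needed for both kinds of arm, measured 147, 144, 202 and 99.5 CPM, with the spinal cord lowest. Its 2 spinal cord blocks, 98.4 and 101 CPM, lay below every block of the midbrain (161 to 264), lateral ventricle (130.5 to 173) and the third ventricle (129 to 167). Dnaaf2, which acts with chaperones and was lowest per kilobase in this role, was instead highest in the spinal cord, with 29.1, 37.2, 41.3 and 54.7 CPM. Dnaaf5 was the steadiest of all members, from 90.2 to 94.5 CPM. Dnaaf3 and Dnaaf4 ran from 55.8 to 100.3 CPM. Exons of Taf1c on the opposite strand overlap Dnaaf1 over 584 bases. The largest overlap with another gene was 1107 bases for Dnaaf2, 1170 for Dnaaf4, 373 for Dnaaf5 and 281 for Dnaaf3. Dnaaf2 and Dnaaf4 also overlap genes on the same strand. The part of these overlaps in the levels was not tested.

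The 3 regulatory complex subunits were within 2-fold everywhere. Drc3 stood at 1465, 1234, 1628 and 996 CPM. Drc1, the subunit at the base of the link, stood at 411, 409.8, 547 and 446 CPM. Drc7 was nearly flat at 492 to 531 CPM.

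Radial spoke genes were also within 2-fold in every pair of the ependymal groups. Rsph1 measured 2301, 1738, 2137 and 1757 CPM and had reads in every cell of all 4 groups. Rsph9 stood at 563, 519, 689 and 396 CPM. Rsph3a, a spoke stalk gene and the lowest of the role, stood at 11.7, 12.9, 12.2 and 10.1 CPM, but 74.0% of its 50-base windows are shared with Rsph3b, so the level of either copy is uncertain. Rsph3b ran from 18.3 to 27.9 CPM, and Rsph4a, Rsph10b and Rsph14 from 165.3 to 609.6.

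Tektins held both steady and variable members. Tekt1 stood at 694, 667, 679 and 555 CPM. Tekt3 ran from 62.6 to 123 CPM and Tekt4 from 288 to 373. Tekt2 stood at 30.1, 70.8, 55.5 and 47.3 CPM, and the third ventricle blocks (53.5 to 83.8) did not overlap the lateral ventricle blocks (17.7 to 42.7). Tekt5, best known from sperm flagella, stood at 13.2, 8.15, 9.70 and 0.634 CPM. It was read in 30 of 240, 15 of 245 and 24 of 317 brain cells, and all of its spinal cord reads came from 1 of 114 cells. The second row Tekt2.1 gave 0.652, 2.60, 2.03 and 0.919 CPM, and in the 3 brain groups every cell with a Tekt2.1 read also had a Tekt2 read. An antisense gene, Gm12945, overlaps Tekt2 over 396 bases.

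**Figure D3:**
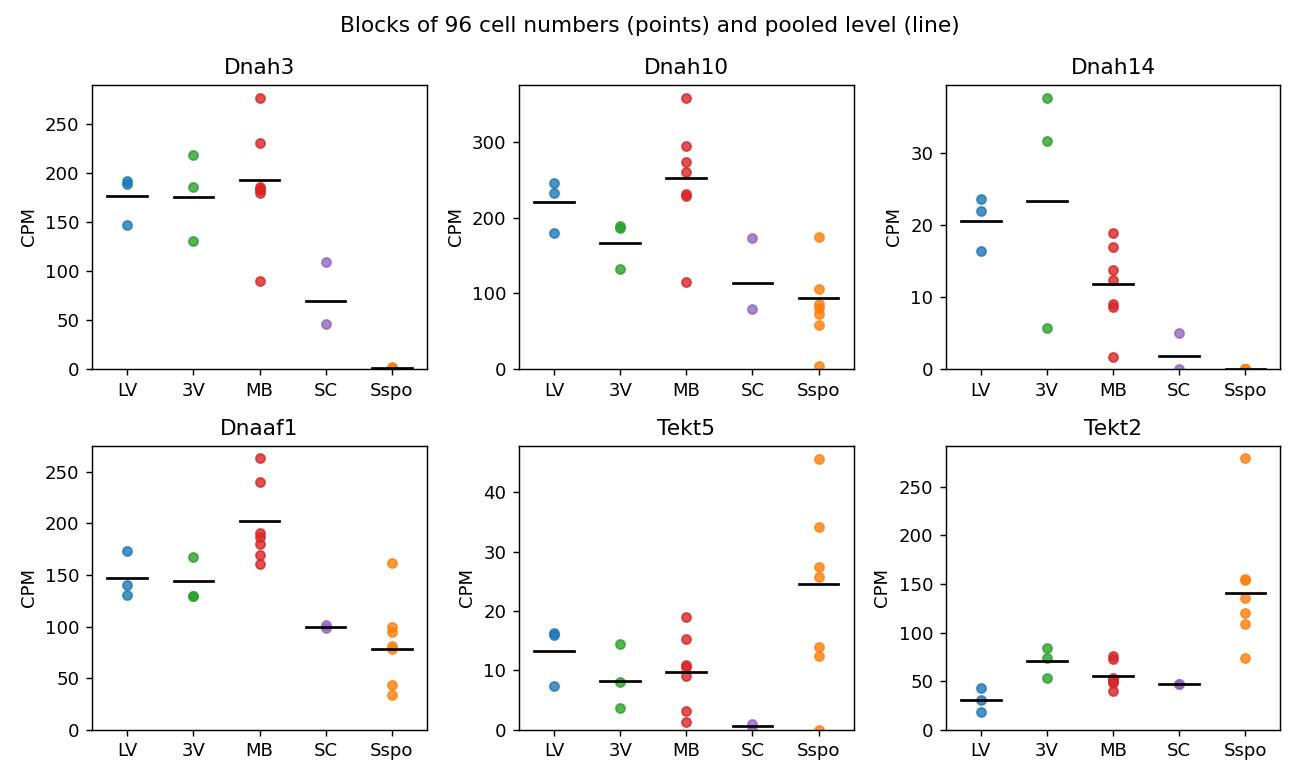
CPM of 6 members in blocks of 96 consecutive cell numbers (points) and over the group (lines), for the lateral ventricle (LV), the third ventricle (3V), Ccdc153-high midbrain (MB), spinal cord (SC) and Sspo-high midbrain (Sspo). Spinal cord points of Dnaaf1 lie below all points of the 3 brain ependymal groups, and Dnah3 and Dnah14 are at or near 0 in Sspo-high cells.

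Counted together, 6 of the 38 members that reached 10 CPM differed 2-fold or more between their highest and lowest ependymal group, namely Dnah3, Dnah10, Dnah14, Dnaaf1, Tekt2 and Tekt5. The share over all 10823 genes compared in this way was 33.3%. The members' median log2 difference was 0.46, against 0.71 over all genes. The midbrain was the highest group for 20 of the 38 members, the spinal cord for 8, the third ventricle for 6 and the lateral ventricle for 4. Over all genes the midbrain was highest for 20.7%. Over all genes the spinal cord was highest for 36.2%, against 21.1% of the members. The spinal cord was the lowest group for 17 members (44.7%, against 35.5% of all genes) and the midbrain for 0 (17.9% of all genes).

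By pairs, which share groups with one another, the ventricles and midbrain were the closest. Between the midbrain and the lateral ventricle 0 of 38 members were 2-fold apart (5.07% of all genes), with a median log2 of 0.17. Between the midbrain and the third ventricle it was 0 of 37 (8.19% of all genes), with a median of 0.30, and Tekt3 at 0.97 and Dnah14 at -0.99 lay nearest to the limit. Between the third and lateral ventricles only Tekt2 was 2-fold apart, 1 of 38 (7.44% of all genes), with a median of -0.09.

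Against the midbrain 4 of 37 members were 2-fold lower in the spinal cord, Dnah14, Dnah3, Dnah10 and Dnaaf1, and 0 were higher (19.7% of all genes in either direction, 10.7% in that direction). The median was 0.27 in favour of the midbrain. Dnaaf1, at 1.02, was close to the limit and stayed 2-fold in 13 of 19 alternatives, with values of 0.92 to 1.80. Against the lateral ventricle 3 of 38 were lower in the spinal cord, Tekt5, Dnah14 and Dnah3 (21.1% of all genes, 10.7% lower), with a median of -0.10. Against the third ventricle 2 of 37 were 2-fold apart, Dnah14 and Dnah3, both lower (21.4% of all genes in either direction), with a median of -0.06. In each of these 6 pairs the members' share, in either direction, lay below that of all genes. Counted only as lower in the spinal cord than in the midbrain, the 4 of 37 lay near the 10.7% of all genes.

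The spinal cord values came with a marker difference. Stmn2, a neuronal tubulin regulator, stood at 236 CPM there and made up nearly all of the 249.9 CPM summed over the 5 measured neuron markers. That sum was 5.27 to 47.5 CPM in the brain ependymal groups. Rbfox3 was at 0 in the spinal cord and also in the lateral ventricle. A Stmn2 read was present in 77 of 114 spinal cord cells. Without those cells Dnah3 was at 109 CPM in place of 69.1 and Dnah10 at 145 in place of 114, so that their midbrain to spinal cord log2 ratios were 0.83 and 0.80 and only 2 members were 2-fold apart. Dnaaf1 was at 58.0 CPM in place of 99.5. Without the first spinal cord block the log2 ratio was 0.83 for Dnah3 and 0.54 for Dnah10. Over the 37 cells without a Stmn2 read Dnah6 (631 CPM) and Dnah9 (239 CPM) stood close to their levels in the other 77 (608 and 249 CPM). Tekt2 was lower in the 37 cells, at 34.6 against 53.5 CPM. The 37 cells also had more Ccdc153 (2471 against 1748 CPM) and a higher median member sum (11445 against 10049 CPM). This split was chosen after the values were seen.

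The rest of the motile cilium genes moved in a similar range. Of 64 further genes listed for the axoneme, its docking complexes and its regulators, 63 reached 10 CPM and 5 differed 2-fold or more between the highest and lowest ependymal group, with a median log2 of 0.41. Ak8, an adenylate kinase, stood at 386, 385, 413 and 183 CPM in the lateral ventricle, the third ventricle, midbrain and spinal cord. Tmem212 stood at 3586, 2984, 3568 and 1768.3 CPM. These 2 were lowest in the spinal cord, while the other 3 were highest there. Efhc2 stood at 24.1, 35.9, 32.5 and 67.6 CPM, and Cfap69 at 203, 155, 232 and 369. Ccno, a regulator of multiciliated cell differentiation, stood at 12.5, 6.22, 16.3 and 51.9 CPM. Foxj1 itself was within 2-fold, from 459.6 to 589.7 CPM.

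Sspo-high cells of the Foxj1 line midbrain retained the axonemal genes at a lower total, with 2 heavy chains all but missing. The split used Ccdc153, itself a cilium gene, so the comparison with Ccdc153-high cells is a description and no test. The member sum was 7075 CPM against 13619.5, and the thinned median was 24 members per cell against 29. At the edge of the split, the 44 midbrain cells with 500 to 1000 CPM of Ccdc153 had a member sum of 7396 CPM and an Sspo level of 8476, and the 27 cells with 1000 to 2000 CPM had 10349.9 and 5495.

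Dnah14 had 0 reads in Sspo-high cells, in 0 of 196 cells, which allows up to 1.53% of cells with a read and sets no limit on cells that express the gene. Against 11.7 CPM in Ccdc153-high cells, a floor of 3 reads over the group gave a value 639.8-fold lower (log2 -9.32). This fold rests on the floor and is no lower bound: its log2 ran from -9.51 to -6.34 over 22 alternatives. Dnah3 gave 0.563 CPM (95% exact Poisson interval 0.453 to 0.690) against 193, a log2 ratio of -8.42. It was read in 21 of 196 Sspo-high cells, and thinned in 3.57% of cells, below the 16.9% of Mog-high cells. Dnah6, by contrast, was read in 186 of the 196 cells at 305 CPM.

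Of 38 members, 16 were 2-fold or more lower in Sspo-high cells and 2 were higher (33.3% of all genes in either direction, 14.9% lower and 18.3% higher), and the median log2 was -0.86, against 0.16 over all genes. Dnali1 stood at 339 CPM against 1250.4, Rsph9 at 190.1 against 689 and Drc3 at 617 against 1628, with block ranges that did not overlap. The outer arm chain Dnah11 stood at 48.4 against 152 CPM, Dnah5 at 111 against 240.0 and Dnah9 at 132 against 218. Dnal4, Dnaaf2, Dnaaf3 and Dnah7a were within 1.1-fold.

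Tekt2 and Tekt5 were the members higher in Sspo-high cells. Tekt2 stood at 141 CPM against 55.5, and was read in 73.5% of Sspo-high cells against 39.7% of Ccdc153-high cells. The Sspo-high blocks ran from 73.3 to 279 CPM and the Ccdc153-high blocks from 40.2 to 75.4, so they overlapped only at their ends. Tekt2.1, its second row, stood at 4.61 against 2.03 CPM. Tekt5 stood at 24.6 against 9.70 CPM in 15.3% and 7.57% of cells, with overlapping blocks. Its log2 ratio of 1.34 was under 2-fold in 3 of 22 alternatives, with a lowest value of 0.77.

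**Figure D4:**
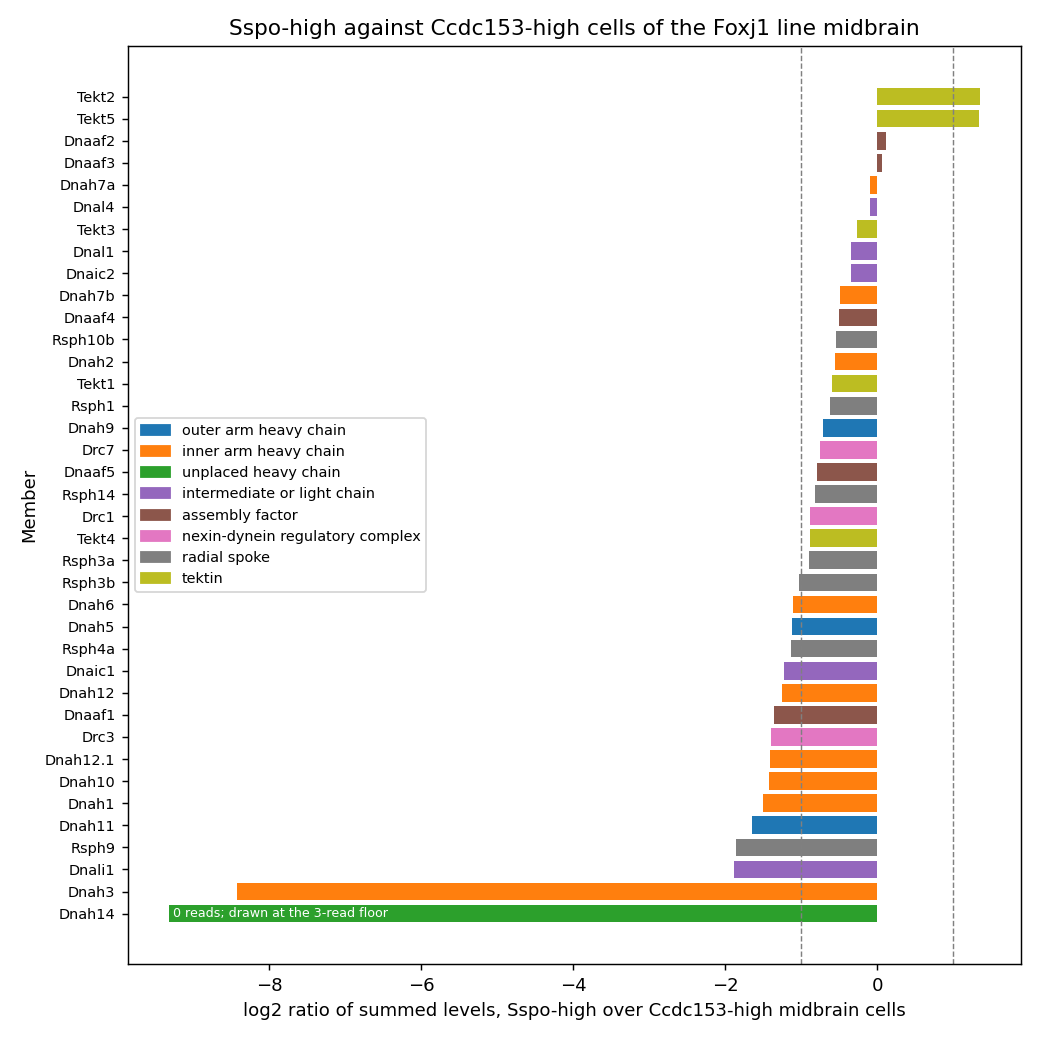
Log2 ratio of the summed level in Sspo-high over Ccdc153-high cells of the Foxj1 line midbrain for the 38 members that reached 10 CPM in either class, coloured by role, with dashed lines at 2-fold. Dnah14, with 0 reads in Sspo-high cells, is drawn at the floor of 3 reads. Tekt2 and Tekt5 lie right of the upper line, 16 members lie left of the lower line, and Dnah3 and Dnah14 lie beyond -8.

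Ccdc153-high cells of the Nkx2-2 line, only 19 in number, had nearly the same total, at 12242 CPM. Compared with those of the Foxj1 line, 3 of 37 members were 2-fold lower and 0 higher (34.6% of all genes in either direction, 21.9% lower), with a median log2 of -0.11. These were Dnah14 (0.935 against 11.7 CPM, in 1 of 19 cells), Dnaic2, an outer arm intermediate chain (225 against 471), and Dnaaf1 (71.8 against 202). These cells also held 5766 CPM of 6 oligodendrocyte markers against 25.4 in the Foxj1 line, and the part of that in the ratios was not tested. The log2 ratio of Dnaic2 was -1.07 and stayed 2-fold in 10 of 14 alternatives (-1.31 to -0.58), and that of Dnaaf1 was -1.49 and stayed so in 13 of 14 (-2.05 to -0.80). The line, the sex of the animals and the sample cannot be told apart. The 12 Sspo-high cells of this line gave Dnah3 and Dnah14 0 reads each, which allows up to 25% of cells with a read.

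Mog-high cells gave a reference level for single members, but they differ from the Foxj1 line groups in line, sample, sex of the animals and depth. Whether their reads are background or expression was not tested. Their highest values were 34.0 CPM for Dnal4, 20.8 for Dnaaf5, 15.4 for Dnaaf2 and 14.3 for Rsph9, the only 4 members at 10 CPM or more. Reads of these were present in 16.5 to 28.8% of Mog-high cells. The ependymal levels of Dnal4 (243 to 346 CPM) and Dnaaf2 (29.1 to 54.7 CPM) each stood above that gene's Mog-high value.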

How the data were processed

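Counts per gene and cell were deposited by the authors as raw counts, beside a table of log2 normalized values; STAR 2.3.1o, Seurat 3 and the mm10 build are named in the submitters' processing notes, and the counting tool and annotation are not given in the sources used here. Every deposited log2 value equalled log2(count/factor + 1) for a factor per cell (tolerance 0.01), with factors from 0.0875 to 6.00. All 1473 deposited cells were kept (lowest total 108417 reads), no doublets were removed, and no cell name was shared by samples. Cells whose names begin Forebrain or Tanycytes were assigned to the lateral or the third ventricle on anatomical grounds.

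Counts were summed per group and scaled to CPM. A 2-fold ratio with at least 10 CPM on either side was counted as a difference, with no test, since each group was 1 sample. A group without reads was set to a floor of 3 reads. Intervals are 95% exact Poisson. Exonic lengths and overlaps came from GENCODE vM21 (GRCm38), where 39 of 41 rows matched, Dnaaf4 as Dyx1c1. Blocks needed at least 10 cells. Cells were thinned once with a fixed seed. Scripts used Python 3.11.15, numpy 2.4.6, scipy 1.17.1, pandas 2.3.3 and matplotlib 3.10.9. The code was also run on simulated counts with larger changes and counting error only. That run checks the code and does not test 2-fold calls under the spread between cells.

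Members, lists and roles were chosen with earlier results of these data known. Members named with values in every group were those with the highest and lowest CPM per kilobase in each role, those 2-fold apart between ependymal groups and those under 10 CPM; other members were named after their values were seen. None of 3 endothelial markers was in the table.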

Additional observations from a re-analysis of the deposited data

How the results depend on the processing

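The 6 members 2-fold apart between ependymal groups numbered 4 without spinal cord cells holding a Stmn2 read, an alternative added after seeing the data. In that setting the midbrain to spinal cord count was 2 and its median 0.12, and the spinal cord medians turned to 0.14 against the lateral and 0.20 against the third ventricle. Against the third ventricle that median was 0.01 with deposited normalized values or the mean of cell CPM. With midbrain cells from 500 CPM of Ccdc153, the midbrain to lateral ventricle count was 1 and its median 0.08. With a minimum of 1 CPM or none, which adds low rows, that count was 2 and its median 0.28, while the counts were 7 for midbrain against spinal cord, 2 for the third against the lateral ventricle, and 6 for the spinal cord against the third ventricle. The count for the midbrain against the third ventricle was 2 with deposited values or the mean of cell CPM, and 1 from 500 CPM of Ccdc153, with Ccdc153 at 1000 CPM in every region, without the 2% of cells with the most genes, or with either lower minimum. The Nkx2-2 to Foxj1 line count was 5 with deposited values or from 2000 CPM of Ccdc153, 1 from 500 CPM, 6 without the 2% of cells or with either lower minimum, and 11 without the top cell of each gene (median -0.32), as a group of 19 cells allows. Except where the setting itself adds or removes genes or cells, the cause was not tested. Of the 166 alternative values of the counts, medians, shares of cells and levels per length, 133 were unchanged by the rule used, 29 moved and 4 turned sign. Under this rule a count could change by a set ratio. Medians could shift by the standard deviation of single-block medians, and shares and levels per length by that between groups.

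For single members 506 alternative values stayed and 22 moved, and none turned sign, but 10 ratios fell under 2-fold in at least 1 alternative. A ratio stayed if it shifted by no more than the standard deviation of ratios from single blocks. Many alternatives only left out 1 block or a few cells. These shift a ratio less than single blocks do, so the number that stayed does not measure robustness. Besides those of Dnah3 and Dnah10, the ratios that fell under 2-fold were Dnaaf1 (midbrain over spinal cord) in 6 of 19 and Tekt2 (the third over the lateral ventricle) in 1 of 11. For Sspo-high over Ccdc153-high cells they were Tekt5 (down to 0.77) and Rsph3b (-1.03, down to -0.87) in 3 of 22 each. Dnah5 (-0.97) and Dnah6 (-0.96) fell under it in 1 of 22 each. In the Nkx2-2 line they were Dnaic2 in 4 of 14 (-0.58 at the least) and Dnaaf1 in 1 of 14 (-0.80). Leaving out 1 block gave log2 0.54 to 1.66 for Dnah10 and 0.83 to 2.07 for Dnah3 (midbrain over spinal cord), 0.92 to 1.06 for Dnaaf1, and 0.97 to 1.52 for Tekt2 (the third over the lateral ventricle). No paired analysis was possible because each group was 1 sample. In the spinal cord Dnah14 and Tekt5 rested on 3 and 1 cells with a read, and how far depth limits these values was not tested.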
